A study of Mus musculus with 21 samples.

Results

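Primary cultures of mouse inguinal subcutaneous fat cells on day 28 (P0_day28, 3 libraries) were compared with the freshly isolated cells from which such cultures start (P0_day0, 3 libraries). These are 6 of the 21 libraries of a culture time course. The cells are the stromal vascular fraction, the mixed population that remains when digested fat is freed of adipocytes and red blood cells. The mice were female C57BL/6J, 8 to 12 weeks of age, and carried no genetic change named in the labels. Day 28 cells had been grown on uncoated plastic, seeded at 5000 live cells per square centimetre, in a minimal growth medium with 10% fetal bovine serum. Day 0 cells came straight from the enzymatic digestion and had not been plated. No differentiating agent was named for either group. The labels do not say whether a replicate number marks an animal, a pool of animals or a dish, so the spread behind each p-value is that among libraries and may be technical. The title of the series speaks of differentiation towards heart muscle cells, and the comparison asks which transcripts differ after 28 days on plastic.

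In fat, the stromal vascular fraction holds fibroblast-like progenitors that lay down collagen and can become adipocytes, together with endothelial and mural cells of blood vessels, macrophages and lymphocytes. The inguinal fat pad of female mice also houses the mammary gland, whose epithelium expresses hormone receptors. Growth medium on plastic selects for cells that adhere and divide. The libraries were made from all cells together, so fewer cells of a type and less RNA per cell cannot be told apart in any result below.

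Genes are named from limited stretches of the genome, because most symbols in the deposited table did not match their values. The named genes lie on chromosome 4 (3549041 to 59801589), chromosome 6 (3372257 to 30748465), chromosome 9 (3335140 to 13245829) and chromosome 15 (9578193 to 38519266) of GRCm38, or in the mitochondrial genome. These stretches hold 541 protein-coding genes, and the mitochondrial genome holds 13. The label check went by detection. In the stretches, 81.7% of the genes were above the detection floor in at least 1 library, against 43.9% of 15650 protein-coding genes elsewhere on the chromosomes. All 13 mitochondrial genes were above it. Levels are given in scaled reads, recovered from the deposited log2 values. The table replaces low values by a floor, here read as 30 scaled reads, and 0 reads by a lower floor, read as 16. The true level of a library on a floor lies at or below that floor. A fold change is therefore understated where only the lower group has libraries on a floor, and depends on the floors where the higher group has them too. A fold given as "at least" sets the geometric mean of the detected group against 30. Levels were not divided by gene length, so a gene is compared between libraries and not with other genes, and the summed level of a list gives long and abundant genes more weight.

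The libraries of a group resembled each other more than those of the other group. Pearson correlations across 7768 gene models, which are not independent, were 0.937 to 0.951 within day 28, 0.945 to 0.948 within day 0 and 0.705 to 0.725 between the groups. Reads above the floor came to between 3025779 and 3739421 in the day 28 libraries, against 2594615 to 3767927 in the day 0 libraries. Gene models detected above the floor numbered 4958 to 5725 at day 28, against 7388 to 7409 at day 0. The floor lay at 27.8 to 39.0 reads in the day 28 libraries and at 18 to 24.6 reads in the day 0 libraries, so these numbers of detected gene models use unequal read limits. The part of that difference in the results was not tested.

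Differences were tested with limma over all 7768 gene models above the floor in at least 3 of the 21 libraries, and a gene model was called at a Benjamini-Hochberg adjusted p under 0.05. Of these, 60.3% were called: 1026 of 7768 higher at day 28 and 3658 lower (47.1%). The split of directions depended on the scaling. Quantile normalization gave 2196 rises and 1935 falls, and dividing each library by its median gene model gave 1639 rises and 2707 falls. Over the 3173 gene models detected in every library, the median log2 fold change was -0.33 as deposited, 0.26 after quantile normalization and 0.00 after scaling to the median, and single changes are to be read against that shift. Calls of the same direction under all 3 scalings numbered 1026 of 7768 higher and 1922 lower (24.7%).

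Of the 554 named genes, 436 were tested. The other 118 did not reach the limit, and 99 of those were above the floor in no library. Among the 436, 116 were higher at day 28, 181 were lower and 139 were not called, with a median log2 fold change of -0.25 beside -0.54 over all tested gene models. All 116 higher calls held under all 3 scalings, as did 120 of the 181 lower calls. Both other scalings shifted day 28 upward against day 0, and all 1026 higher calls over the whole table held. That a rise held under all scalings, here or below, therefore adds no support. A difference of at least 3 log2 units was seen in 12 of the higher and 34 of the lower genes. Over all 7768 tested gene models, it was seen in 95 called higher and 355 called lower. Counts of the lists below are to be read beside 1026 of 7768 higher and 47.1% lower over all tested gene models. The groups did not overlap in 61.9% of all tested gene models, so a lack of overlap, where given below, was common. For the 12 highest and 12 lowest changes it was a condition of selection, and there it adds no support. In the plot of all tested gene models, the named genes spread over the same range of levels and changes as the others.

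**Figure D1:**
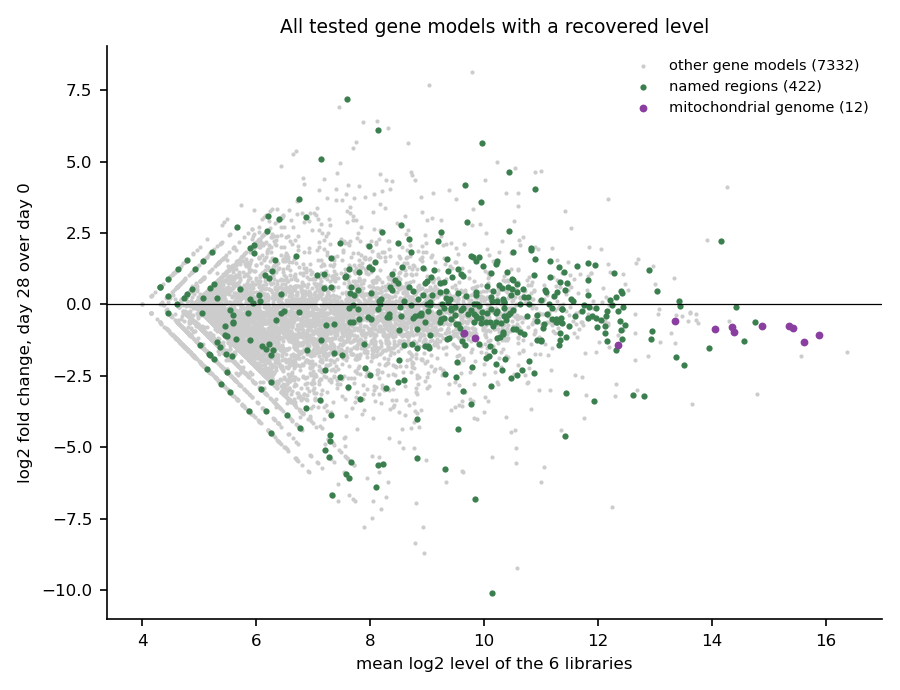
Log2 fold change of day 28 over day 0 (vertical axis) against the mean log2 level of the 6 libraries (horizontal axis) for every tested gene model with a recovered level. Green points are the genes of the named stretches and purple points the mitochondrial genes; the 1026 gene models called higher are fewer than the 3658 called lower, a balance that turned to 2196 higher and 1935 lower after quantile normalization.

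Structural genes of the extracellular matrix were higher in the day 28 cultures. Of 10 collagens and matrix proteins tested, 8 were higher and 0 lower, with a median log2 fold change of 1.43, and all 8 calls held under the 3 scalings. Col1a2 encodes a chain of type I collagen, the main fibre of connective tissue and a marker of fibroblasts. Its absolute level could not be recovered, and its deposited log2 values, which are relative to its own mean over the series, were 0.93, 1.03 and 1.31 at day 28, against -2.95, -3.14 and -2.98 at day 0. The groups lay far apart, and Col1a2 was 17.3-fold higher (log2 fold change 4.11 with a standard error of 0.12, n = 3 in each group, limma adjusted p 1.05e-14). Errors given as ± are standard errors with the same n. Svep1, a large secreted adhesion protein, had 6309, 7396 and 7630 scaled reads at day 28, against 153, 154 and 117 at day 0. The difference was 50.6-fold (log2 5.66 ± 0.22, limma adjusted p 5.62e-13). Svep1 is among the 12 highest changes, for which a lack of overlap was a condition of selection. Col28a1, a collagen known from basement membranes of peripheral nerve, had 2201, 4554 and 4147 scaled reads at day 28 and 243, 160 and 177 at day 0. The lowest of its day 28 values was replicate 1, still well above day 0 (log2 4.19 ± 0.40, limma adjusted p 1.13e-07).

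Smaller rises were seen for matrix genes that act at the cell surface or on other matrix proteins. The syndecan gene Sdc2, a heparan sulfate proteoglycan that binds growth factors, had 7795, 7873 and 6443 scaled reads at day 28 and 3027, 3630 and 3576 at day 0, with no overlap (log2 1.11 ± 0.12). Reck, a membrane-anchored inhibitor of matrix metalloproteinases, rose by 1.65 ± 0.26 log2 units. The secreted metalloproteinase gene Adamts12 rose by 1.71 ± 0.16, and Col15a1, a collagen of vessel and muscle basement membranes, by 1.21 ± 0.30. Thsd7a, a thrombospondin-type membrane protein, and Matn2, a matrilin, were not called, and their groups overlapped.

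**Figure D2:**
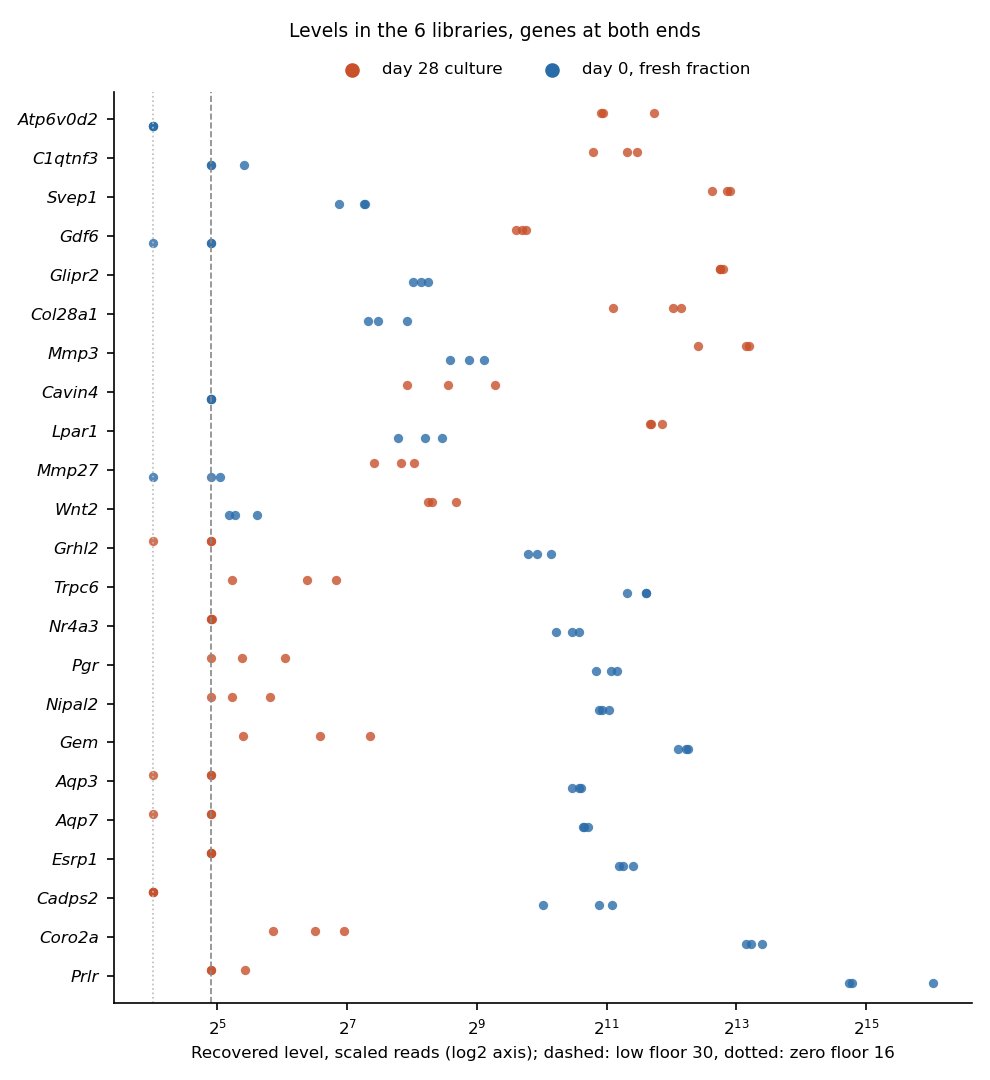
Recovered level in scaled reads (horizontal log2 axis) of the genes with the highest and lowest log2 fold change whose groups do not overlap, 1 point per library, day 28 above day 0 in each row. Col1a2 is left out because its level was not recovered; Atp6v0d2 lies on the lower floor in all 3 day 0 libraries and at 1919 to 3414 scaled reads at day 28, and Prlr lies at 30 to 43.1 at day 28 and at 27341 to 66942 at day 0.

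Matrix metalloproteinases, secreted or membrane-bound zinc enzymes that cut collagen, elastin and proteoglycans, were called in 1 direction. Most of their genes stand side by side on chromosome 9, with Mmp13, Mmp12, Mmp1b, Mmp3, Mmp10, Mmp8, Mmp27 and Mmp20 between positions 7272514 and 7674979 (GRCm38), and Mmp16 lies apart on chromosome 4. Mmp7 and Mmp1a were not analysed here. Of the 9 genes in the named stretches, 7 were tested, 6 were higher and 0 lower, with a median log2 fold change of 1.57, and 2 of the 6 calls depended on the floors. Mmp1b and Mmp20, an interstitial collagenase and the enamel protease, did not pass the limit for a test.

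The start regions of these genes are shown because the genes are neighbours and several carry the same 7-base motif. The windows come from RefSeq (GRCm38.p6). Those printed are all on the plus strand and run from 150 bases before the transcription start to 50 after it, with TGANTCA in capitals. TGANTCA contains the binding consensus of AP-1, the Jun and Fos family of transcription factors, and reads the same on either strand apart from its middle base. The 4 members shown are the tested genes that hold the motif: Mmp3 at chr9:7445672-7445871, Mmp13 at chr9:7272364-7272563, Mmp10 at chr9:7502192-7502391 and the downstream of the 2 starts of Mmp12 at chr9:7347224-7347423.
Mmp3: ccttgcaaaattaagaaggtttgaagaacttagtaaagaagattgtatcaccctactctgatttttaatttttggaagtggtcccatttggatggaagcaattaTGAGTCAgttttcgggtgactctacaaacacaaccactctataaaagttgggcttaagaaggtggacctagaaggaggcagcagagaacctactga
Mmp13: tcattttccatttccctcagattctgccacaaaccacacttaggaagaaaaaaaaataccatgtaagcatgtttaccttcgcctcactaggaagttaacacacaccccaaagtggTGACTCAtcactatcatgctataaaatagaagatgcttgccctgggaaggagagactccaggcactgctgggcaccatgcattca
Mmp10: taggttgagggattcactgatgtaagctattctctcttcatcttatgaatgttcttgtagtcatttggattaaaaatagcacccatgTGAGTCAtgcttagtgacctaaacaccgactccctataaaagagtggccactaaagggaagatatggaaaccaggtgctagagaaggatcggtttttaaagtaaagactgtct
Mmp12: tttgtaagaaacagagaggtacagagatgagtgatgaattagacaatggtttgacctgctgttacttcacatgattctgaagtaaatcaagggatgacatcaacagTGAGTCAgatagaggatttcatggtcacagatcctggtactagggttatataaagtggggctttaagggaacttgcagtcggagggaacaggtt
The first base of the motif lay 46 bases before the start in Mmp3, 35 in Mmp13, 63 in Mmp10 and 44 in Mmp12. Over full windows of 250 bases before to 50 after the start, 6 of the 9 windows of 8 matrix metalloproteinase genes held the motif, the other carriers being Mmp1b and Mmp20. Among all 32851 windows of the RefSeq table, 7.81% held it. Mmp8, Mmp27 and the upstream start of Mmp12 had no such letters in their windows, and Mmp16 had no window. The window of Mmp1b is on the minus strand. Carriers and non-carriers were both among the genes that rose, and Mmp13, a carrier, was not called.

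Mmp3, stromelysin-1, which cuts many matrix proteins and activates other proenzymes, had 9032, 5460 and 9374 scaled reads at day 28, against 471, 551 and 385 at day 0. All day 28 libraries were higher, by 16.7-fold (log2 4.06 ± 0.36, limma adjusted p 4.08e-08). Mmp12, the macrophage elastase, had 3007, 3318 and 3854 scaled reads at day 28 and 548, 653 and 500 at day 0, a difference of 2.58 ± 0.23 log2 units with no overlap. Mmp27 had 227, 171 and 260 scaled reads at day 28 and 16, 30 and 33 at day 0. Since 2 of its day 0 libraries lay on a floor, its rise of 3.11 ± 0.31 log2 units is understated. Mmp8, the neutrophil collagenase, was low throughout, with 38.3, 56.9 and 83.0 scaled reads at day 28 and all day 0 libraries on a floor, and was at least 1.89-fold higher. Mmp16, a membrane-anchored enzyme, and Mmp10, stromelysin-2, were called as well, but each had a day 28 library on the floor at 30, and the Mmp10 groups met there. Neither was called when the lower floor was raised to 30 (limma adjusted p 0.188 for Mmp16 and 0.064 for Mmp10), and Mmp10 had an adjusted p of 0.0509 in a fit without the other 5 groups. Mmp13, collagenase-3, had 534, 567 and 336 scaled reads at day 28 and 218, 421 and 228 at day 0. These groups overlapped, and Mmp13 was not called (log2 0.76 ± 0.37, limma adjusted p 0.086). It was called without day 28 replicate 3 (log2 1.00, adjusted p 0.0444), without day 0 replicate 2 (log2 1.06, adjusted p 0.0301), after quantile normalization (adjusted p 0.00679) and after scaling to the median (adjusted p 0.0152).

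Signalling genes moved in both directions, with more rises than falls. Of 18 growth factor and hormone signalling genes, 11 were higher, 3 lower and 4 not called, and their median log2 fold change was 1.05. All 14 calls held under the 3 scalings. Among the secreted ligands, C1qtnf3, an adipokine of the complement C1q family, had 2542, 1766 and 2835 scaled reads at day 28 and 42.7, 30 and 30 at day 0. Day 28 was far above day 0 in every library, and the rise of 6.11 ± 0.29 log2 units (limma adjusted p 9.53e-12) is understated because 2 day 0 libraries lay on the floor. Gdf6, a bone morphogenetic protein family member active in skeletal and fat development, had 826, 866 and 774 scaled reads at day 28 and lay on a floor in all day 0 libraries, so it was at least 27.4-fold higher. Wnt2, a secreted Wnt ligand, had 408, 316 and 305 scaled reads at day 28 and 36.1, 38.4 and 48.9 at day 0. The groups did not overlap (log2 3.06 ± 0.29), and the day 0 values were close to the floor. Pdgfd, a ligand of the platelet-derived growth factor receptors, rose by 1.03 ± 0.15.

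Receptors followed no single direction. Lpar1, a receptor for the serum lipid lysophosphatidic acid, had 3304, 3253 and 3692 scaled reads at day 28, against 220, 294 and 353 at day 0. That is a 12.0-fold difference with no overlap (log2 3.59 ± 0.16, limma adjusted p 5.57e-12). Npr3, the clearance receptor for natriuretic peptides, had 1345, 1418 and 1043 scaled reads at day 28 and 225, 199 and 440 at day 0 (log2 2.22 ± 0.27). Tgfbr1, the signalling type I receptor for transforming growth factor beta, had 4083, 3896 and 4024 scaled reads at day 28 and 1864, 1900 and 1723 at day 0. Its libraries were tight in each group and the rise was 1.13 ± 0.09. Il11ra1, the interleukin 11 receptor, rose by 0.96 ± 0.13, Tmeff1, a transmembrane protein known from frog embryos as an inhibitor of Nodal signalling, by 2.15 ± 0.37, and the relaxin-3 receptor gene Rxfp3 was at least 4.33-fold higher. In the other direction, Met, the receptor for hepatocyte growth factor, had 371, 630 and 310 scaled reads at day 28 and 2545, 3404 and 3163 at day 0, a difference of -2.85 ± 0.27. Cntfr, the receptor for ciliary neurotrophic factor, had a log2 fold change of -2.47 ± 0.43, and Tspan12, a tetraspanin that assists Norrin and Frizzled signalling, one of -1.98 ± 0.15.

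Genes typical of macrophages and other leukocytes were higher in the cultures. Of 8 such genes, 6 were higher, 1 was lower and 1 was not called, with a median log2 fold change of 2.05. The 6 rises held under all scalings. The summed level of the list was 7241 to 10762 scaled reads in the day 28 libraries and 2889 to 3361 in the day 0 libraries, and all 8 genes were above the floor in a day 28 library, against 6 of 8 at day 0. Atp6v0d2, a subunit of the proton pump of osteoclasts and macrophages, had 1974, 1919 and 3414 scaled reads at day 28 and lay at the lower floor in all 3 day 0 libraries. It was at least 78.2-fold higher. Tfec, a transcription factor of the macrophage lineage, had 288, 238 and 193 scaled reads at day 28 with all day 0 libraries on the floor, at least 7.88-fold higher. Otulinl had 847, 875 and 1262 scaled reads at day 28 and 133, 220 and 95.3 at day 0. No library overlapped (log2 2.80 ± 0.28, limma adjusted p 1.75e-07). Irf5, an interferon regulatory factor that drives inflammatory cytokines, had 798, 645 and 1435 scaled reads at day 28 and 232, 125 and 222 at day 0 (log2 2.28 ± 0.30). Cd72, a receptor of B cells and some myeloid cells, had 924, 636 and 852 at day 28 and 263, 162 and 259 at day 0 (log2 1.83 ± 0.35). Casp1, the protease that matures interleukin 1 beta, rose by 1.08 ± 0.24. Lyn, a Src-family kinase of myeloid and B cells, was not called as deposited (log2 0.31 ± 0.14, limma adjusted p 0.0678) and was called higher after quantile normalization (log2 0.66) and after scaling to the median (log2 0.65). The tetraspanin gene Tspan33 had a log2 fold change of -1.58 ± 0.55. Its call was lost under both other scalings, in a fit without the other 5 groups (limma adjusted p 0.111), without day 28 replicate 1 (log2 -1.29, adjusted p 0.0881) and without day 0 replicate 3 (log2 -0.85, adjusted p 0.154).

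Mmp12, which is not in the macrophage list, is known from macrophages. Mmp12 and the summed level of that list were both higher at day 28, which holds for every gene that rose. The part of the macrophage list in the rise of Mmp12 was not tested. The lymphocyte list moved the other way. Its defining genes Pax5 and Sit1 lay on a floor in all 6 libraries, and the summed level of the list was 35.6 to 113 scaled reads at day 28 and 204 to 316 at day 0. Bach2 and Tox, transcription factors of B and T cells, were lower by 1.76 ± 0.44 and 1.55 ± 0.34 log2 units, calls that were lost after quantile normalization.

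**Figure D3:**
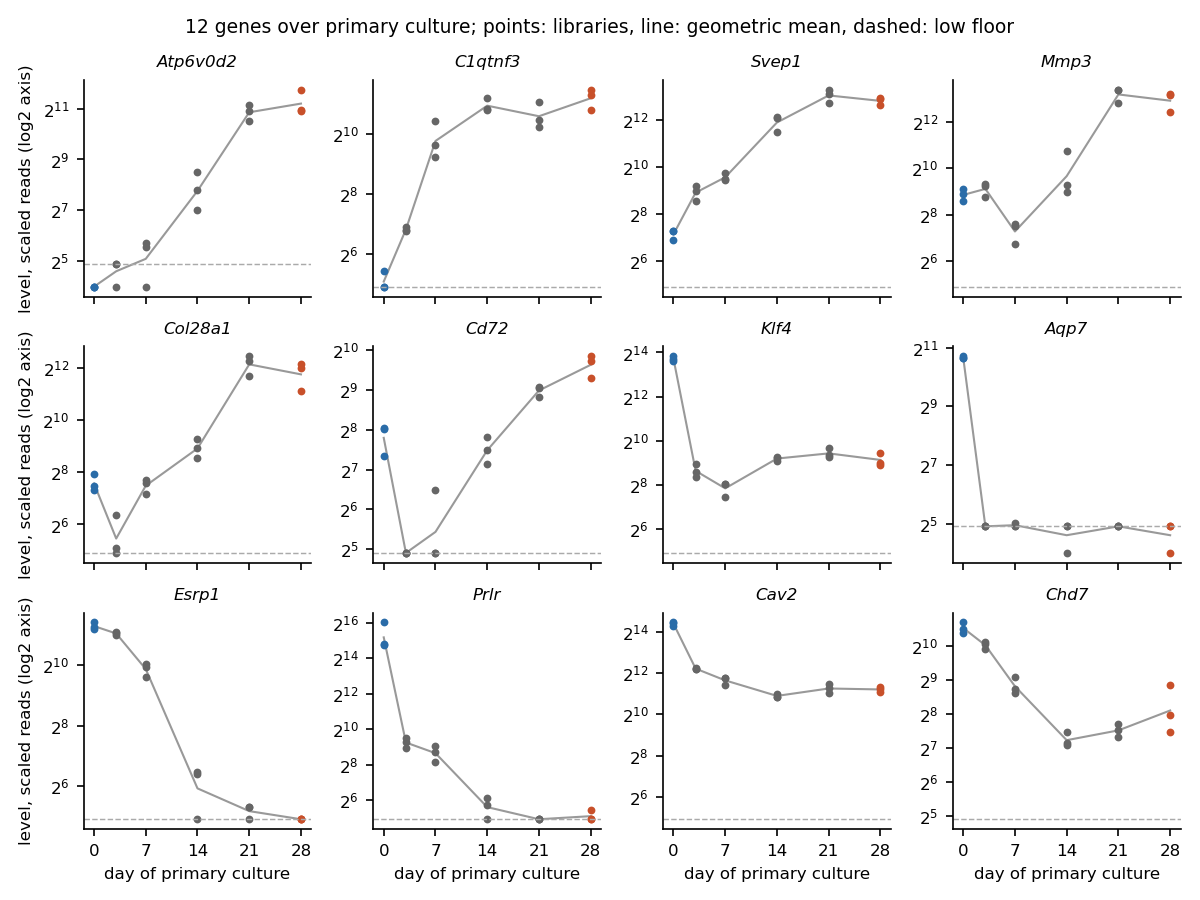
Level in scaled reads (vertical log2 axis) of 12 genes on day 0 and then days 3, 7, 14, 21 and finally 28 of primary culture, 1 point per library, with the geometric mean as a line and the floor of 30 dashed. Klf4, Aqp7 and Prlr were already low on day 3, Esrp1 fell later, and Atp6v0d2, Mmp3 and Cd72 were high by day 21.

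Epithelial genes were on or near the floor in the day 28 cultures. Of 8 tested, 7 were lower, 0 higher and 1 not called, with a median log2 fold change of -5.46, and 6 of the 7 calls held under all scalings. Their summed level was 41.5 to 79.7 scaled reads in the day 28 libraries, against 34966 to 74986 in the day 0 libraries. Esrp1, which sets the epithelial pattern of splicing, lay on the floor in all day 28 libraries, against 2345, 2715 and 2442 scaled reads at day 0, and was at least 83.2-fold lower. Grhl2, a transcription factor that maintains epithelial junctions, lay on a floor at day 28 and had 969, 1124 and 885 scaled reads at day 0, at least 32.9-fold lower. The level of Esrp1 averaged 2501, 2109, 940, 67.7, 36.4 and 30 scaled reads on day 0 and then days 3, 7, 14, 21 and finally 28.

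The hormone receptors of this list were among the largest falls. Prlr, the prolactin receptor, had 30, 30 and 43.1 scaled reads at day 28, against 27341, 28296 and 66942 at day 0. Day 0 replicate 3 was above the other day 0 libraries, and all 3 were far above day 28 (log2 -10.10 ± 0.49, limma adjusted p 1.19e-11). With 2 day 28 libraries on the floor this value is understated. Pgr, the progesterone receptor, had 65.7, 41.5 and 30 scaled reads at day 28 and 2136, 1830 and 2278 at day 0 (log2 -5.58 ± 0.35). Epb41l4b, a cytoskeletal linker of epithelial cells, had a log2 fold change of -4.59 ± 0.32. Cdh17, a cadherin of intestinal epithelium, was low in both groups and at least 2.11-fold lower as deposited, but its call was lost after quantile normalization. Cftr, the chloride channel, lay on a floor in all 6 libraries, and Calcr was not analysed here.

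Water channels and adipocyte genes were likewise low in culture. Aqp3, a glycerol and water channel of epithelia, lay on a floor in all day 28 libraries and had 1417, 1559 and 1526 scaled reads at day 0, with no overlap. Aqp7, the glycerol channel of adipocytes and capillary endothelium, also lay on a floor at day 28, against 1675, 1601 and 1597 scaled reads at day 0, at least 54.1-fold lower. It averaged 1624 scaled reads on day 0, 30 on day 3 and 30.9 on day 7. Lep, which encodes the adipocyte hormone leptin, lay on a floor at day 28 and had 87.0, 36.7 and 47.7 scaled reads at day 0, at least 1.78-fold lower. Neither adipocyte marker was above the floor in a day 28 library.

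All 4 immediate early genes, which are switched on within minutes by serum, stress or neural activity, were lower in the cultures under all 3 scalings. Klf4, a transcription factor of stem cells and epithelia, had 515, 482 and 704 scaled reads at day 28, against 12454, 13426 and 14610 at day 0. Its groups lay far apart (log2 -4.59 ± 0.19, limma adjusted p 1.17e-12). Klf10, induced by transforming growth factor beta, had 1134, 1282 and 1240 scaled reads at day 28 and 13960, 12212 and 11913 at day 0 (log2 -3.38 ± 0.10). Gem, a small GTPase that restrains calcium channels, had 42.0, 96.1 and 163 scaled reads at day 28 and 4395, 4865 and 4779 at day 0 (log2 -5.75 ± 0.37). Nr4a3, an orphan nuclear receptor, had 30, 30 and 30.2 at day 28 and 1194, 1418 and 1525 at day 0, an understated log2 fold change of -5.51 ± 0.39. Klf4 averaged 13497, 402, 233, 585, 691 and 567 scaled reads on day 0 and then days 3, 7, 14, 21 and finally 28, so its level was already low on day 3.

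Genes of inflammatory and interferon signalling moved in both directions. Of 9, 6 were lower, 2 higher and 1 not called, where 47.1% of all tested gene models were lower. The median log2 fold change was -1.05, beside -0.54 over all tested gene models, and 5 of the 6 lower calls held under all scalings. Birc3, an inhibitor of apoptosis that is a target of NF-kappaB, had 548, 540 and 646 scaled reads at day 28 and 3526, 3566 and 3325 at day 0 (log2 -2.59 ± 0.12, limma adjusted p 7.26e-12). Its neighbour Birc2 had a log2 fold change of -1.90 ± 0.18, and Trim14, an adaptor of antiviral signalling, one of -2.72 ± 0.27. Rigi, the sensor of viral RNA, and Samd9l, an interferon-induced antiviral factor, were lower by 1.05 ± 0.17 and 0.96 ± 0.18. Casp12, a caspase of the endoplasmic reticulum, rose by 1.12 ± 0.18, and Ripk2, a kinase of bacterial sensing, by 0.75 ± 0.17.

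The caveolin genes were lower, and other genes of the actin cortex were mixed. Of 15 genes for caveolae, actin and adhesion, 8 were lower, 2 higher and 5 not called, where 47.1% of all tested gene models were lower. The list's median log2 fold change was -0.40 as deposited and 0.04 after quantile normalization, so the list as a whole has no direction that is free of the scaling. Cav1, the coat protein of caveolae, had 6157, 6462 and 4442 scaled reads at day 28 and 24705, 24075 and 23796 at day 0 (log2 -2.11 ± 0.16, limma adjusted p 5.90e-09). Cav2, its partner in the next gene on chromosome 6, had 2393, 2546 and 2200 scaled reads at day 28 and 22506, 22711 and 20192 at day 0 (log2 -3.20 ± 0.12, limma adjusted p 7.81e-13). Caveolae are abundant in adipocytes, endothelium and fibroblasts. Coro2a, an actin-binding coronin, had 90.4, 57.7 and 124 scaled reads at day 28 and 9124, 9581 and 10799 at day 0. It showed the second lowest log2 fold change of the named genes, -6.83 ± 0.28. Wasl, which starts actin branching, had a log2 fold change of -1.23 ± 0.12, Tes, a focal adhesion protein, one of -0.80 ± 0.11, and the filopodial motor gene Myo10 one of -0.69 ± 0.11. Tln1, which links integrins to actin, and Rai14, an actin-bundling protein, rose by 0.49 ± 0.06 and 1.97 ± 0.11.

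Vessel and muscle markers were mixed. Trpc6, a cation channel of smooth muscle and mural cells, had 37.4, 83.0 and 113 scaled reads at day 28 and 3130, 3124 and 2541 at day 0, with no overlap (log2 -5.37 ± 0.56). Gucy1a2, a subunit of the nitric oxide receptor, rose by 0.93 ± 0.27. The third gene of the list, Gng11, was not called. The summed level of the 3 vascular and mural genes was 1861 to 2515 scaled reads at day 28 and 5255 to 5863 at day 0. Most of that fall lay in Trpc6 alone, so the sum gives no direction for the list. Of 7 muscle genes tested, 5 were higher, 1 lower and 1 not called, with a median log2 fold change of 1.20. The summed level of the list was 15162 to 18848 scaled reads at day 28 and 7330 to 9030 at day 0. Tpm2, a tropomyosin of muscle and of stress fibres in other cells, had 13460, 10517 and 11042 scaled reads at day 28 and 4715, 4481 and 6056 at day 0 (log2 1.20 ± 0.12). Flnc, the muscle filamin, which stromal cells also express, rose by 0.78 ± 0.08. Cavin4, the caveolar coat protein of heart and skeletal muscle, had 623, 374 and 242 scaled reads at day 28 with all day 0 libraries on the floor, at least 12.8-fold higher. Musk, the receptor kinase of the neuromuscular junction, had 132, 35.4 and 77.6 scaled reads at day 28 with all day 0 libraries on a floor, at least 2.38-fold higher. Lmod2, a leiomodin of the heart sarcomere, had 50.2, 30 and 36.6 at day 28, close to the floor, and 16 in all day 0 libraries, so its fold change depends on the floors and is not given. Fhl5, a transcriptional cofactor of smooth muscle and testis, lay on a floor at day 28 and was at least 2.24-fold lower. Asb15 did not pass the limit for a test.

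**Figure D4:**
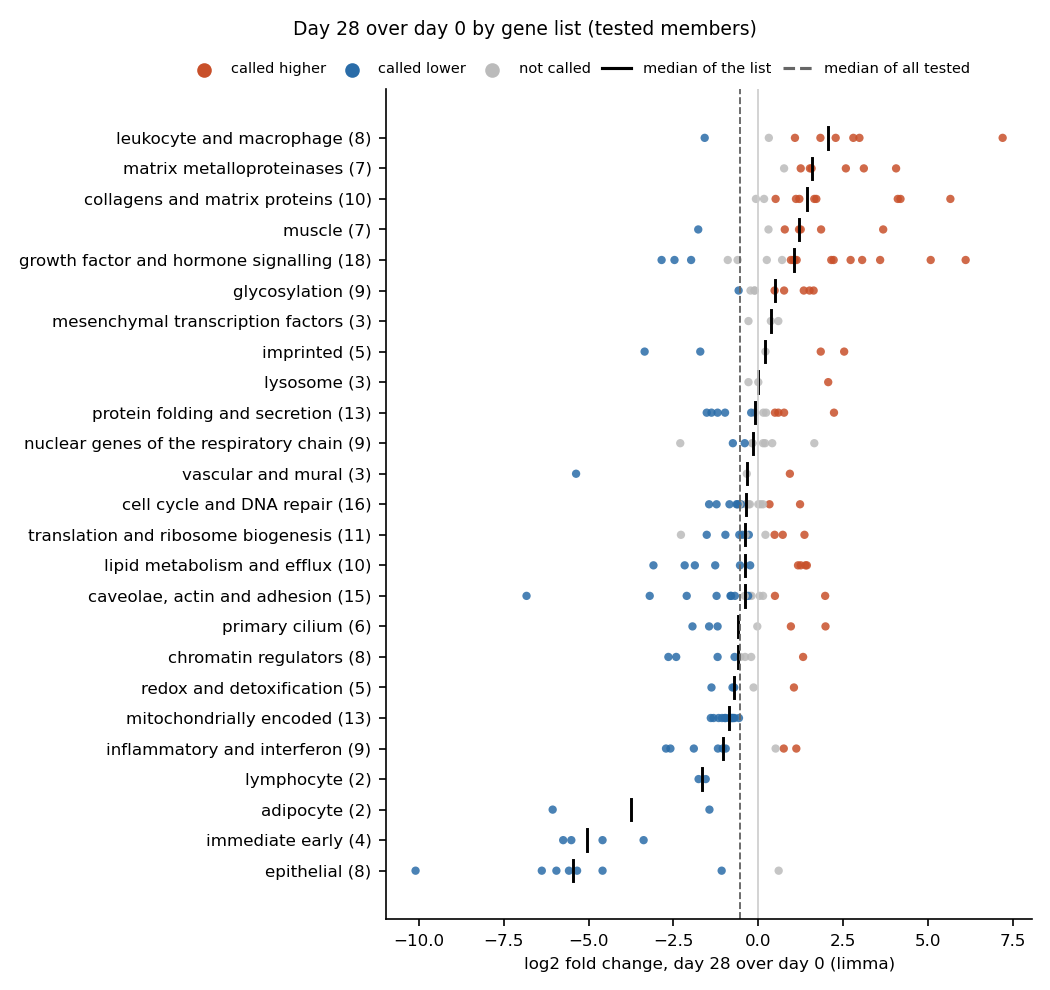
Log2 fold change of day 28 over day 0 (horizontal axis) for the tested members of each gene list, 1 point per gene, coloured by call as deposited, with the list median as a black bar and the median of all tested gene models, -0.54, dashed. Macrophage, metalloproteinase, matrix, muscle and signalling lists have medians between 1.05 and 2.05, and the epithelial and immediate early lists lie at -5.46 and -5.05; lists with medians near 0, such as lipid metabolism, cell cycle, folding and translation, changed sign or came close to 0 after quantile normalization.

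Lipid genes moved in both directions. Of 10 tested, 4 were higher and 6 lower, where 47.1% of all tested gene models were lower. Under all scalings, 4 of each held. Abca1, which loads cholesterol onto lipoproteins, had 5152, 6197 and 8293 scaled reads at day 28 and 2759, 2004 and 2649 at day 0 (log2 1.39 ± 0.17). Ugcg, which makes glucosylceramide, had 3642, 7305 and 8121 at day 28 and 1644, 2546 and 2612 at day 0 (log2 1.43 ± 0.32), with replicate 1 the lowest in each group. Pon3, a lactonase, and Ptgr1, which degrades eicosanoids, rose by 1.25 ± 0.17 and 1.17 ± 0.11. Hsdl2, a peroxisomal and mitochondrial enzyme of fatty acid metabolism, had 881, 1041 and 958 scaled reads at day 28 and 8293, 8206 and 7932 at day 0. It was 8.50-fold lower with no overlap (log2 -3.09 ± 0.10, limma adjusted p 1.21e-13). Pdk4, which turns fuel use from glucose to fat, had a log2 fold change of -2.17 ± 0.26, and Hilpda, a lipid droplet protein that inhibits lipolysis, one of -1.87 ± 0.14. Decr1, an enzyme of unsaturated fat oxidation, was lower as deposited by 0.54 ± 0.16, a call that the other scalings did not keep.

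Of 8 chromatin regulators tested, 4 were lower, 1 higher and 3 not called, shares near those over all tested gene models, of which 47.1% were lower. The median was -0.61 as deposited, beside -0.54 over all, and -0.18 after quantile normalization. Chd7, the remodeller mutated in CHARGE syndrome, had 177, 252 and 461 scaled reads at day 28 and 1335, 1645 and 1439 at day 0 (log2 -2.42 ± 0.30, limma adjusted p 2.40e-06). Ing3, a reader of histone methylation in an acetyltransferase complex, had 158, 145 and 162 scaled reads at day 28 and 1028, 738 and 1218 at day 0 (log2 -2.65 ± 0.21). Phf14 was lower by 1.20 ± 0.21. Runx1t1, a corepressor of adipogenesis, had 492, 663 and 652 scaled reads at day 28 and 287, 192 and 248 at day 0 (log2 1.32 ± 0.17). Zfp292 was lower by 0.70 ± 0.17, a call that did not hold under all scalings.

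Imprinted genes and developmental transcription factors were few. Mest, an imprinted gene linked to fat cell size, had 1270, 2481 and 965 scaled reads at day 28 and 310, 257 and 198 at day 0 (log2 2.53 ± 0.40). Sgce, an imprinted sarcoglycan, had 2666, 2751 and 2895 at day 28 and 952, 720 and 672 at day 0 (log2 1.84 ± 0.14). The neighbouring Peg10 was near the floor in both groups. Ppp1r9a, an actin-binding scaffold of neurons, and Asb4, a ubiquitin ligase adaptor, were lower by 3.35 ± 0.35 and 1.71 ± 0.39. Of 3 mesenchymal transcription factor genes tested, none was called as deposited. Osr2, a zinc finger factor of limb and palate development, had 202, 151 and 187 scaled reads at day 28 and 123, 86.8 and 156 at day 0 (log2 0.59 ± 0.35, limma adjusted p 0.159). It was called higher after quantile normalization (adjusted p 0.00184) and after scaling to the median (adjusted p 0.029).

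Cell division genes were called in both directions. Of 16 cell cycle and DNA repair genes, 2 were higher, 6 lower and 8 not called, where 47.1% of all tested gene models were lower. Under all scalings, 1 of the lower calls held. The median was -0.36 as deposited and 0.16 after quantile normalization, so no direction is given for the list. Rad1, a clamp of the DNA damage checkpoint, had 439, 395 and 368 scaled reads at day 28 and 148, 154 and 220 at day 0 (log2 1.23 ± 0.15). Rad23b, which delivers damaged DNA and ubiquitinated proteins, was lower by 0.64 ± 0.14. Nbn, of the double-strand break sensor, had 861, 903 and 797 scaled reads at day 28 and 1327, 1179 and 1405 at day 0. Its log2 fold change was -0.61 ± 0.13 as deposited, -0.19 after quantile normalization and -0.27 after scaling to the median, and it was called only as deposited.

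The 13 mitochondrially encoded genes, which supply subunits of the respiratory chain and of ATP synthase, were all lower as deposited, but the size and for some genes the sign depended on the scaling. Their median log2 fold change was -0.85 as deposited, -0.52 after scaling to the median gene model and -0.14 after quantile normalization, and 5 genes were lower in all 3. The share of reads from these genes, leaving out mt-Co1, was 7.07% to 7.57% in the day 28 libraries and 9.25% to 9.86% in the day 0 libraries. The lowest log2 fold changes were those of the ATP synthase genes. The gene mt-Atp8 had 3089, 3336 and 3206 scaled reads at day 28 and 7855, 9003 and 8635 at day 0, and its overlapping neighbour mt-Atp6 had 30637, 31266 and 33108 at day 28 and 76750, 78681 and 82165 at day 0. No libraries overlapped, and the log2 fold changes were -1.40 ± 0.11 and -1.32 ± 0.12. The gene mt-Cytb, of complex III, had 42338, 37025 and 46594 scaled reads at day 28 and 84023, 92556 and 87157 at day 0 (log2 -1.07 ± 0.16). The genes mt-Nd3 and mt-Nd4l of complex I complete the 5. The genes mt-Nd1 and mt-Co1 were lower as deposited (log2 -0.74 ± 0.17 and -0.70 ± 0.18) and had log2 fold changes of 0.07 and 0.22 after quantile normalization.

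**Figure D5:**
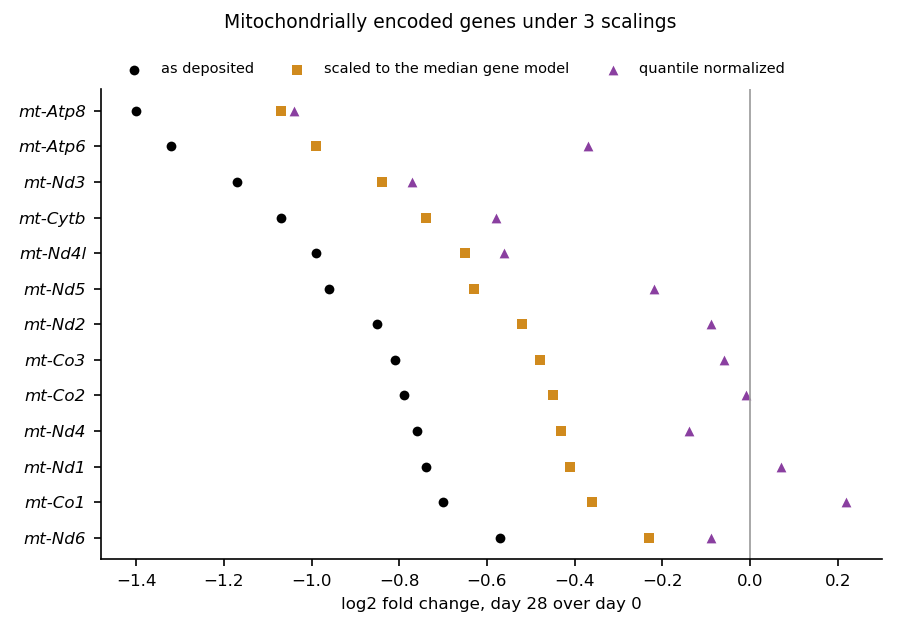
Log2 fold change of day 28 over day 0 (horizontal axis) for the 13 mitochondrially encoded genes under 3 scalings. As deposited all 13 lie between -1.40 and -0.57, while after quantile normalization mt-Nd1 and mt-Co1 lie above 0 and several others near 0.

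Of 9 nuclear genes of the respiratory chain tested, 2 were lower, 0 higher and 7 not called. Ndufa4, a subunit of cytochrome c oxidase, had 3196, 3435 and 3759 scaled reads at day 28 and 5928, 5111 and 6523 at day 0 (log2 -0.75 ± 0.11, limma adjusted p 1.07e-05), and this call held under all scalings.

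Protein folding and secretion genes moved apart. Of 13, 4 were higher, 5 lower and 4 not called, with a median of -0.10 as deposited and 0.38 after quantile normalization. Over all tested gene models, 47.1% were lower. Calu, a calcium-binding chaperone of the secretory pathway, had 41343, 40815 and 37043 scaled reads at day 28 and 6405, 6647 and 14287 at day 0. Day 0 replicate 3 was above the other day 0 libraries, and all were below day 28 (log2 2.23 ± 0.25, limma adjusted p 5.67e-07). Creb3, a transcription factor of the secretory pathway, rose by 0.76 ± 0.08, Bet1, a SNARE of transport to the Golgi, by 0.59 ± 0.12, and Sec61b, of the translocon, by 0.49 ± 0.10. The cytosolic chaperone genes went the other way. Dnaja1, a partner of Hsp70, had 8930, 9369 and 9731 scaled reads at day 28 and 27277, 26778 and 26157 at day 0 (log2 -1.52 ± 0.09), and Cct5, of the chaperonin that folds actin and tubulin, was lower by 0.98 ± 0.27. Golph3, a Golgi protein that shapes vesicle traffic, was lower by 1.20 ± 0.08.

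Glycosylation genes were higher in 5 of 9 cases and lower in 1, with a median log2 fold change of 0.48, and the 5 rises held under all scalings. Manea, which trims glucose-capped N-glycans in the Golgi, had 2038, 1950 and 2071 scaled reads at day 28 and 621, 957 and 605 at day 0 (log2 1.51 ± 0.17). Alg2, which adds mannose to the N-glycan precursor, rose by 1.34 ± 0.14, Galnt12, which starts O-glycans, by 1.63 ± 0.47, and B4galt1, a galactosyltransferase, by 0.48 ± 0.10. Slc35a1, the transporter of activated sialic acid, was lower by 0.58 ± 0.15, a call lost after quantile normalization and after scaling to the median.

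Of 11 translation and ribosome biogenesis genes, 3 were higher, 5 lower and 3 not called. The lower share was near the 47.1% over all tested gene models. The median was -0.38 as deposited and 0.02 after quantile normalization. Asns, the asparagine synthetase induced by the amino acid response, had 5146, 5005 and 5158 scaled reads at day 28 and 1884, 1945 and 2136 at day 0. All day 28 libraries were higher, by 2.57-fold (log2 1.36 ± 0.07, limma adjusted p 4.11e-11). Tars, the threonyl-tRNA synthetase, rose by 0.72 ± 0.09. Mdn1, a giant ATPase of ribosome assembly, was lower by 1.52 ± 0.23 and Zfp622, another assembly factor, by 0.97 ± 0.13.

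Among the smaller lists, redox and detoxification genes were higher in 1 of 5 cases and lower in 3, where 47.1% of all tested gene models were lower. Txn1, the cytosolic thioredoxin, was lower by 0.71 ± 0.09 and Grhpr, a glyoxylate reductase, by 1.38 ± 0.17, both under all scalings. Of 3 lysosome genes 1 was higher and 2 were not called. Rragd, a GTPase through which lysosomes activate mTORC1, had 580, 385 and 615 scaled reads at day 28 and 108, 154 and 114 at day 0 (log2 2.06 ± 0.29). Of 6 genes of the primary cilium, 2 were higher and 3 lower, a lower share near the 47.1% over all tested gene models. Anks6, a partner of the inversin compartment, was at least 3.94-fold higher, and Cep41, a tubulin-modifying protein, rose by 0.96 ± 0.24. Dync2h1, the motor of retrograde transport in cilia, was lower by 1.94 ± 0.29 and Tmem67, of the transition zone, by 1.45 ± 0.28.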

How the data were processed

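The authors deposited log2 values of 30961 gene models in 1 table covering 21 libraries, 3 in each of 7 groups. Per the labels' protocols, 15 ng of total RNA went into cDNA amplification with a kit that does not mark strand, after extraction with either of 2 kits. Per the submitters' processing notes, the genome build was GRCm39. The aligner, counting program and scaling were not named in the labels or the header. In the deposited table each gene model's log2 values sum to 0 over the libraries, and low values repeat at a pair of floors. Reading these as 16 for 0 reads and 30 for low values, and 1 factor per library, gave levels for 30465 gene models. Another 493 had 1 value throughout, and 3 were not resolved. Of 14586 values between the floor and 200 reads, 100.0% were whole within 0.1 read. The factors had been chosen to make values whole, and only gene models with mostly whole values were checked. This share therefore cannot test the reading of the floors. Reads under the floor are missing, so the full depth is unknown and no count test or interval was computed. Col1a2 and mt-Co1 were unresolved and entered the fit on their deposited log2 values, placed at the top of the level range, on which their quantile values rest.

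Symbols were checked against GENCODE M21 on GRCm38, where 28928 identifiers were found, 28065 with the same symbol, and no coordinates were converted. All 21 libraries entered 1 limma fit (limma 3.58.1, R 4.3.3) with trend and group as factor, with Benjamini-Hochberg adjustment over 7768 gene models above the floor in at least 3 libraries. Other steps ran in Python 3.11.15 (pandas 2.3.3, numpy 2.4.6), and figures were drawn with matplotlib 3.10.9. On simulated data over 7768 gene models, limma recovered 57 of 100 genes changed by 1 log2 unit and 90 of 100 changed by 2, with 4 false calls. No other gene models were changed there, the noise was normal, and floors and a shift between groups were absent. In the data 60.3% were called, so these rates do not carry over to the comparison. Recovery of levels was right for 5569 of 5569 resolved gene models of 6000 simulated. That simulation was built with the same floors, so it does not test their reading.

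Named are the 12 highest and 12 lowest log2 fold changes among called genes whose groups do not overlap, and members of 25 gene lists. The genes, lists and tests were chosen with earlier results of these data known. The 14 alternatives were 2 scalings, a raised lower floor, 2 filters, a fit of the compared groups alone, no trend, a replicate block and each of the 6 libraries left out.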

Additional observations from a re-analysis of the deposited data

How the results depend on the processing

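Of 2021 log2 fold changes of the 145 genes described in the text under 14 alternatives, 1986 kept direction and call, 20 were no longer called, 10 were newly called and 5 changed sign. Quantile normalization gave 2196 gene models higher and 1935 lower, with 176 and 124 in the named stretches. Scaling to the median gave 1639 higher and 2707 lower. The change of sign was seen in Thsd7a (0.37 after quantile normalization, 0.26 after scaling to the median), mt-Co1 (0.22) and mt-Nd1 (0.07), both after quantile normalization, and Cox6c (-0.06 without day 0 replicate 1, and 2.57 without day 0 replicate 3). Their cause was not tested. Leaving out 1 library gave 878 to 1035 gene models higher and 3286 to 3671 lower, and 106 to 119 higher and 162 to 188 lower in the named stretches. Of the 145 genes, 1 lost its call without 1 library, Tspan33. With the replicate number as a block, 1008 were higher and 3624 lower, with 115 and 181 in the named stretches, and no call among the 145 genes changed. Same-numbered libraries correlated at 0.30, 0.06 and 0.16 in their deviations from the group means. All libraries but day 28 replicate 2 correlated best with their own number, and that library correlated at 0.12 with day 0 replicate 3. The labels do not say what a number marks, and the main fit did not take the numbers as pairs. Whether same-numbered libraries share a source was not tested. Values under the floor are missing, which limits low genes: folds that involve a floor depend on it, and 118 of 554 genes could not be tested.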

Other observations

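Of the 436 tested genes, 232 belonged to no list, and 50 of these were higher at day 28, 96 lower and 86 not called by limma, with a median log2 fold change of -0.32. The genes in this paragraph and the next, other than Glipr2, Cadps2 and Nipal2, were chosen after their values were seen. Glipr2, a small Golgi-associated protein, had 6886, 6840 and 7064 scaled reads at day 28, against 305, 281 and 259 at day 0. It had the smallest spread among the large rises (log2 4.62 with a standard error of 0.09, n = 3 in each group, limma adjusted p 2.16e-16), and it averaged 282, 3347, 7565, 9035, 6957 and 6930 on day 0 and then days 3, 7, 14, 21 and finally 28. Mdfic, an inhibitor of MyoD family proteins, had 1850, 2351 and 2660 scaled reads at day 28 and 407, 184 and 375 at day 0. Cped1 had 3279, 3409 and 3889 at day 28 and 1176, 790 and 901 at day 0. Foxp2, a forkhead transcription factor, had 128, 437 and 103 at day 28 with all day 0 libraries on the floor, at least 5.98-fold higher. Its log2 fold change was 2.58 ± 0.48, and 1.94 without day 28 replicate 2. Car9, a carbonic anhydrase induced by hypoxia, was at least 4.27-fold higher.

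Several other genes in no list were detected in the fresh fraction and low in culture. Cadps2, which primes dense-core vesicles, lay at the lower floor at day 28 and had 1036, 1882 and 2177 scaled reads at day 0, at least 54.0-fold lower. Unc13b, which primes synaptic and secretory vesicles, had 119, 171 and 224 at day 28 and 3128, 3663 and 3352 at day 0. Dnai1, a dynein chain of motile cilia, lay on the floor at day 28 and was at least 27.2-fold lower. Hepacam2, an adhesion protein of secretory epithelium, was at least 16.4-fold lower, and Tac1, the precursor of substance P, at least 7.11-fold lower. Nipal2, a magnesium transporter family member, had 37.4, 30 and 56.0 scaled reads at day 28 and 1880, 2105 and 1945 at day 0. Retreg1, a receptor for autophagy of the endoplasmic reticulum, had 247, 223 and 321 at day 28 and 3028, 2778 and 2899 at day 0.

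Some gene models stood apart in the same replicate number of both groups. In replicate 1, 118 tested gene models were at least 0.5 log2 units below the other replicates of both groups and 22 at least 0.5 above. The counts were 55 and 20 in replicate 2, and 16 and 106 in replicate 3. All are small parts of the 7768 tested. Gene models apart in unlike replicate numbers were not counted, so an effect shared by replicate number was not tested. Akirin2, in replicate 1 among the lower ones, had 321, 1102 and 1568 scaled reads at day 28 and 259, 402 and 1047 at day 0. In a few genes 1 or more libraries fell to a small share of the others. Cox6c had 1603, 1745 and 1752 scaled reads at day 28 and 50.9, 1611 and 1944 at day 0. Rpl30 had 1202, 121 and 1332 at day 28 and 2987, 2705 and 2742 at day 0. Ndufa5 had 16, 16 and 1165 at day 28 and 16, 1337 and 1652 at day 0. Limma called none of Cox6c, Rpl30 and Ndufa5, with adjusted p of 0.444, 0.0718 and 0.435. Without day 0 replicate 1 the log2 fold change of Cox6c was -0.06 in place of 1.65, and without day 28 replicate 3 Rpl30 was called lower (log2 -2.88, adjusted p 0.0445).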
